A study of Mus musculus with 2 samples.

Results

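The 10 macrophage marker genes *Mrc1*, *Mpeg1*, *Csf1r*, *Adgre1*, *Cd68*, *Lyz2*, *Cd163*, *C1qa*, *Itgam* and *Fcgr1* were followed in RNA of sorted mammary basal cells. They were taken by name from a raw count table of 49492 genes, and all 10 were found. Each gene is known to be strongly expressed by macrophages and low in epithelium. The Ctrl basal library came from wild-type mice (treatment "none" in the sample labels, saline in the series design) and the CL basal library from wild-type mice given clodronate liposomes (CL). Both were labelled day 7. The study's methods describe adult female mice, repeated intraperitoneal CL injection and sorting of lineage-negative CD24+ CD29-high cells, with CD45, CD31 and TER119 as the lineage markers. Each group had 1 library, and how many mice each library held is not given in the sources used here. No difference below therefore has a replicate check, and intervals cover counting error only.

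Macrophages are resident phagocytes of the mammary stroma that clear dying cells and lie along the ducts. They depend on the receptor encoded by *Csf1r* and are recognised in the mouse by F4/80, the product of *Adgre1*, and CD11b, the product of *Itgam*. Clodronate liposomes are engulfed by phagocytes and kill them. A sort against CD45 should remove macrophages from both groups alike, whether or not CL had removed them from the gland first.

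The Ctrl basal library held 37846008 counts and the CL basal library 38962512. Of the counts from 1 to 20, 67.9% and 68.7% were even, as when the mates of a read pair are counted separately. Intervals of 95% were therefore computed from halved counts, while the counts printed are those deposited. The basal label matched its markers, with *Krt14* at 3125 RPKM (counts scaled by exon length and library size) in Ctrl basal and 3445 in CL basal, and the smooth muscle myosin gene *Myh11* at 1121 and 1138. Other cell types were also seen: the luminal keratin genes *Krt8* and *Krt18* were at 1250 and 924 RPKM in Ctrl basal and 766 and 511 in CL basal. The endothelial adhesion genes *Cdh5* and *Pecam1* were at 40.1 and 23.0 RPKM in Ctrl basal and 32.0 and 17.8 in CL basal. Of 6 endothelial genes 4 were lower in CL basal, while *Vwf* (1.99 and 2.04 RPKM) and *Emcn* (0.74 and 1.03) were not.

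The 10 markers together held 715 counts in Ctrl basal and 655 in CL basal. This was 18.6 and 17.0 CPM (counts scaled to library size) after scaling by the trimmed mean of M-values (TMM), and the log2 ratio of the sums was -0.13 (95% exact interval -0.35 to 0.09). All 10 were detected in CL basal and 9 in Ctrl basal, where *Fcgr1* had no count. *Cd68* alone gave 32.6% of the sum in Ctrl basal and 28.2% in CL basal. Without it the sums were 482 and 470, a log2 ratio of -0.04 (-0.30 to 0.23). A difference in the total was thus not detectable at this depth, but this rests on *Mpeg1*: without it the sums were 687 and 567, a log2 ratio of -0.28 (-0.51 to -0.05). Without *Mrc1* they were 547 and 569, a log2 ratio of 0.05 (-0.19 to 0.30). In bulk RNA, fewer cells of a type and less RNA per cell cannot be told apart.

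**Figure D1:**
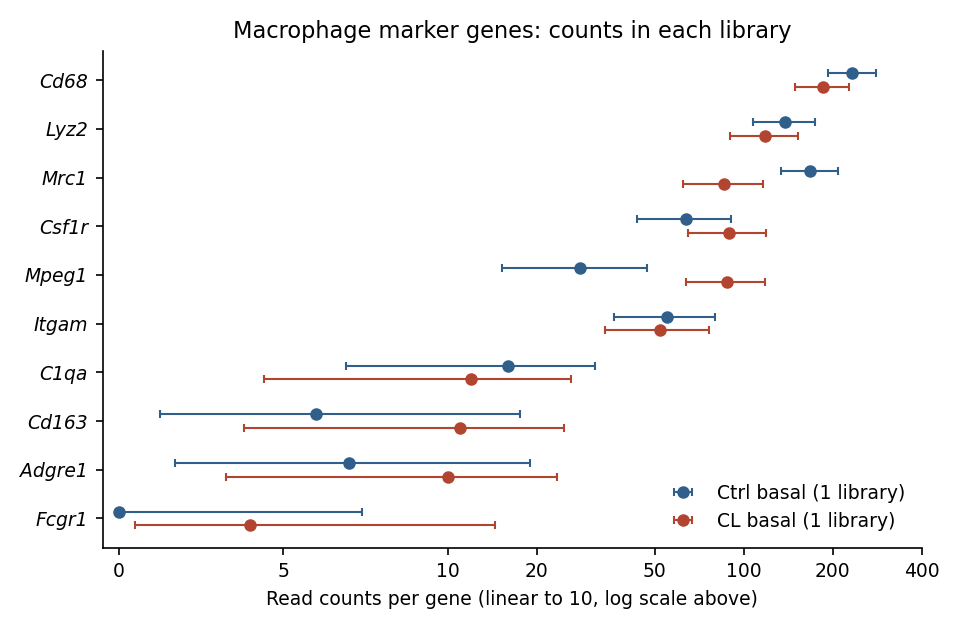
Read counts of the 10 macrophage marker genes (vertical axis) in the Ctrl basal (blue) and CL basal (red) libraries; the horizontal axis is linear to 10 counts and logarithmic above, and bars are 95% exact Poisson intervals from halved counts. The intervals of the 2 libraries are apart for *Mrc1* (168 and 86 counts) and *Mpeg1* (28 and 88) and overlap for the other 8 genes.

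Per length, the markers were far below the abundant epithelial genes such as *Krt14*, while some luminal genes, among them *Elf5* (0.37 and 0.31 RPKM in Ctrl basal and CL basal), were also low. *Cd68* was the highest marker, at 4.83 RPKM in Ctrl basal and 3.83 in CL basal, and the level of *Krt14* was 647 and 900 times its level in the same libraries. *Lyz2* came next, at 2.84 and 2.42 RPKM. The other 8 markers were below 1 RPKM in both libraries. In Ctrl basal they ran from *Mrc1* (0.69 RPKM) through *C1qa* (0.40), *Csf1r* (0.34), *Itgam* (0.22), *Mpeg1* (0.17), *Adgre1* (0.056) and *Cd163* (0.029) to *Fcgr1* (0). In CL basal the order was *Mpeg1* (0.53 RPKM), *Csf1r* (0.47), *Mrc1* (0.35), *C1qa* (0.30), *Itgam* (0.21), *Adgre1* (0.080), *Cd163* (0.052) and *Fcgr1* (0.040). From *Mrc1* down in Ctrl basal and from *Mpeg1* down in CL basal, the 95% intervals of neighbours in the order overlapped. The step from *Lyz2* to the next gene was clear of counting error in both libraries, and that from *Cd68* to *Lyz2* only in Ctrl basal. Among all genes with a count, *Cd68* stood at percentile 72.2 by RPKM in Ctrl basal and *Cd163* at percentile 6.02.

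**Figure D2:**
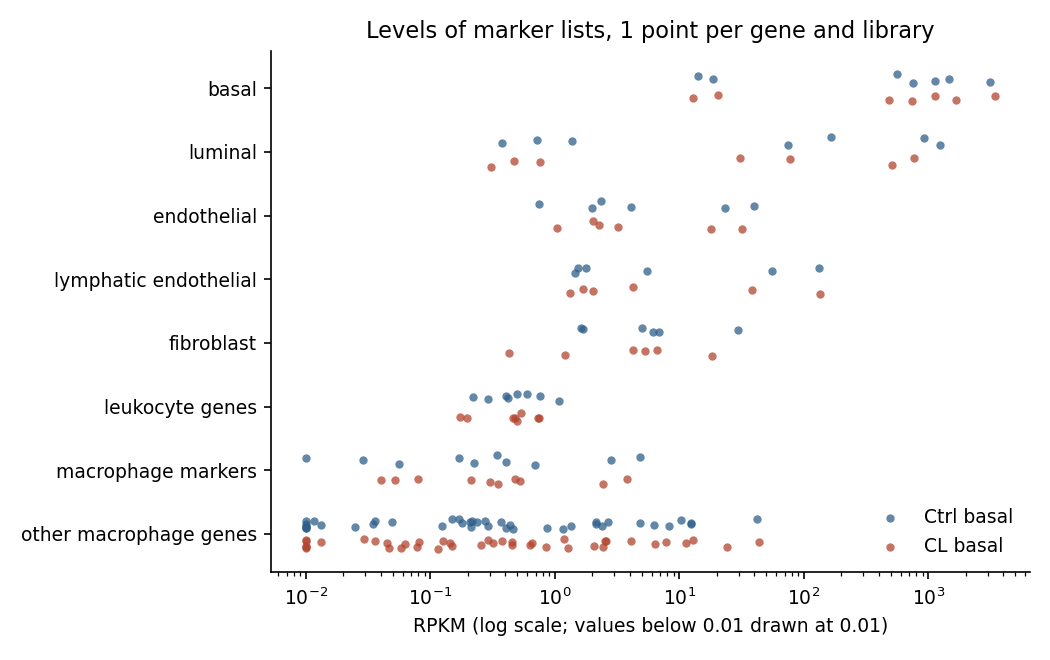
Level of each gene (1 point per gene and library) in RPKM on a logarithmic axis for lists of cell type markers, with Ctrl basal in blue and CL basal in red and values below 0.01 drawn at 0.01. The macrophage markers lie at or below 4.83 RPKM, with *Cd68* and *Lyz2* above the leukocyte genes (at most 1.08 RPKM), *Adgre1*, *Cd163* and *Fcgr1* below them, and all 10 under the main basal keratins.

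The surface receptors that define the lineage had intervals across 0. *Csf1r* (chromosome 18, 61105572 to 61132149, GRCm38), the receptor for the survival factors CSF1 and IL-34, had 64 counts in Ctrl basal and 89 in CL basal, with the log2 fold change at 0.46 (95% interval -0.22 to 1.18). This value is uncertain, since 871 of its 4885 exonic bases lie in exons of *Hmgxb3* on the opposite strand (1401 and 1712 counts) and the use of strand in counting was not stated. *Itgam* (chromosome 7, 128062640 to 128128160), the alpha chain of the CD11b/CD18 integrin that monocytes and neutrophils also carry, had 55 and 52 counts, with the log2 fold change at -0.08 (-0.92 to 0.74). It shares 347 of 6377 exonic bases with the same-strand gene *RP23-144N15.3*, which had 6 counts in Ctrl basal and 0 in CL basal. Its count is uncertain, since 64.3% of the 100-base words of its GENCODE transcripts also occur in the overlapping gene *Gm49368*, which was not analysed here. *Adgre1* (chromosome 17, 57358686 to 57483529) had 7 counts in Ctrl basal and 10 in CL basal, with an interval from -1.77 to 3.0 on the log2 scale. *Fcgr1* (chromosome 3, 96282909 to 96293969), the high-affinity IgG receptor, had 0 and 4 counts, so no fold is given. The 4 receptor genes together had 126 counts in Ctrl basal and 155 in CL basal, a log2 ratio of 0.30 (-0.20 to 0.80), so a difference was not detectable at this depth.

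The scavenger receptors held the marker that was lowest in CL basal relative to Ctrl basal. *Mrc1* (chromosome 2, 14229392 to 14332057) encodes the mannose receptor CD206, which is used as a marker of tissue-resident and alternatively activated macrophages and is also known in lymphatic endothelium. It had 168 counts in Ctrl basal and 86 in CL basal, with the log2 fold change at -0.95 (95% interval -1.53 to -0.42). This was 1.94-fold lower, just under the 2-fold threshold. The Ctrl basal library was the higher, and the intervals of the 2 counts were apart (134 to 208 against 62.2 to 115.8). Among 6410 genes with 100 to under 1000 counts, 3.67% were at least as low. *Cd68* (chromosome 11, 69664213 to 69666153), a lysosomal glycoprotein that is abundant in macrophages, had 233 counts in Ctrl basal and 185 in CL basal, with the log2 fold change at -0.33 (-0.75 to 0.07). *Cd163* (chromosome 6, 124304656 to 124330527), the haptoglobin-haemoglobin receptor, had 6 and 11 counts, with an interval from -1.42 to 3.53. The 3 genes together had 407 and 282 counts, a log2 ratio of -0.53 (-0.85 to -0.22), with *Mrc1* giving most of the difference.

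Lymphatic endothelial genes were read beside *Mrc1*. The 6 lymphatic endothelial genes held 14640 counts in Ctrl basal and 14211 in CL basal, with a median log2 fold change of -0.09 and values from -0.55 (*Ccl21a*) to 0.21 (*Reln*). *Pdpn*, the most counted, had 9185 and 9401 counts (0.03), and without it the list held 5455 and 4810. *Prox1*, their defining transcription factor, had 489 and 424 counts (-0.21). Their part in the value of *Mrc1* was not tested.

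Of the innate effector genes, *Mpeg1* had more reads in CL basal. *Mpeg1* (chromosome 19, 12460779 to 12465284) encodes perforin-2, a pore-forming protein of phagocytes that acts on engulfed bacteria. It had 28 counts in Ctrl basal and 88 in CL basal, with the log2 fold change at 1.58 (95% interval 0.75 to 2.63). This was 2.99-fold higher. The CL basal library was the higher, and the intervals of the 2 counts were apart (15.3 to 47.0 against 63.9 to 118.1). Only 9 of the 6410 genes with 100 to under 1000 counts (0.140%) were at least as high. *Mpeg1*, with 116 counts over both libraries, lies at the low end of this class. The share was 0.281% (5 of 1777) among genes with 100 to under 200 counts, and 2.96% (114 of 3849) in the class of 20 to 99 counts. *Lyz2* (chromosome 10, 117277334 to 117282274), lysozyme M, had 138 and 118 counts, with the log2 fold change at -0.23 (-0.76 to 0.29). *C1qa* (chromosome 4, 136895917 to 136898803), the A chain of complement C1q, had 16 and 12 counts (-0.37, -2.22 to 1.30). Its partner chains, encoded beside it, had 12 and 6 counts (*C1qb*) and 16 and 6 counts (*C1qc*), with intervals across 0. The 3 effector genes together had 182 counts in Ctrl basal and 218 in CL basal (0.26, -0.16 to 0.67).

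*Lyz2* has a near copy, *Lyz1*, on the same strand of chromosome 10, from 117287796 to 117292868 (GRCm38). *Lyz1* had 6 counts in Ctrl basal and 22 in CL basal (log2 fold change 1.58, interval -0.05 to 4.35). The coding sequences align without a gap and are identical at 422 of 444 bases (GENCODE transcripts). The stretch from bases 216 to 444 of the coding sequence, printed here from 5′ to 3′, holds the longest run they share, 118 bases, within which reads cannot be told apart. Capitals mark the 5 bases that differ in it, of 22 in the whole coding sequence:
Lyz2: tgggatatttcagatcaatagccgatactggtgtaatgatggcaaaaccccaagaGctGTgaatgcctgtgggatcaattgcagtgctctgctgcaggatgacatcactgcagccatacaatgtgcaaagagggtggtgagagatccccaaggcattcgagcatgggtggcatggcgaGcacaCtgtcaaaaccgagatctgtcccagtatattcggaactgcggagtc
Lyz1: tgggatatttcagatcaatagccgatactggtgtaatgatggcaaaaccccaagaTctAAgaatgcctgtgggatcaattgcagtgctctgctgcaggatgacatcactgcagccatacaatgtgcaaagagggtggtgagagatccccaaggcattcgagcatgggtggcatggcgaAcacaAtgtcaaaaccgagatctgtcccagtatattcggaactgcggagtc
Only 1.97% of the 100-base words of the *Lyz2* transcript also occurred in *Lyz1*. Reads of that length would mostly be assignable, but read length and the treatment of multi-mapped reads are not given in the sources used here, so the split between the 2 lysozyme genes is uncertain. Their sum was 144 counts in Ctrl basal and 140 in CL basal.

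**Figure D3:**
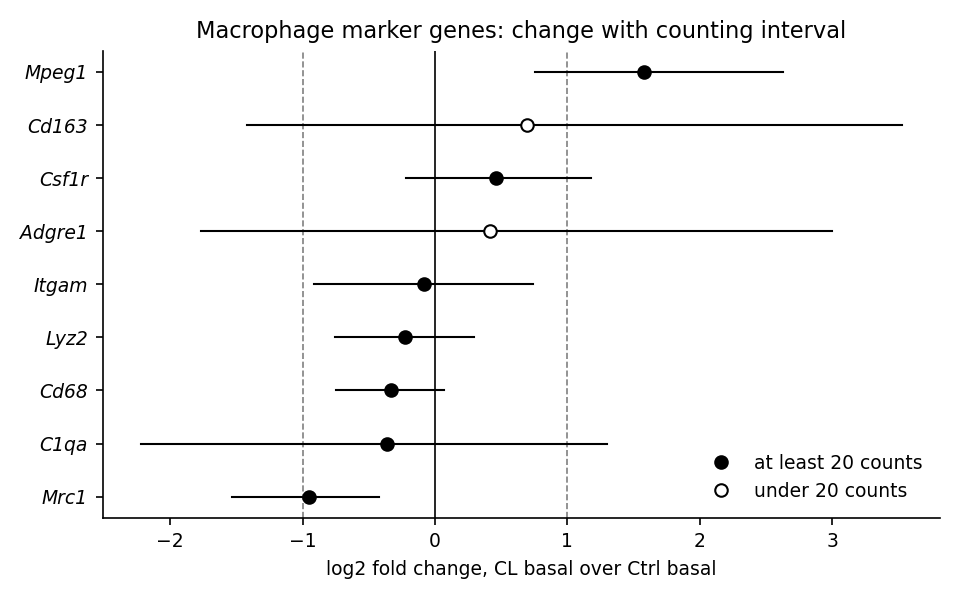
Log2 fold change of CL basal over Ctrl basal for 9 macrophage marker genes, with 95% exact binomial intervals from halved counts and dashed lines at 2-fold. The interval of *Mpeg1* (0.75 to 2.63) lies above 0 and that of *Mrc1* (-1.53 to -0.42) below 0, while the other 7 span 0. *Fcgr1* is not drawn, since it had no count in Ctrl basal.

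Of the 10 markers, 7 had at least 20 counts over both libraries, and *Adgre1*, *Cd163* and *Fcgr1* did not. Of the 7, 1 (*Mpeg1*) was at least 2-fold higher in CL basal and 0 were at least 2-fold lower. Among all 17356 genes with at least 20 counts, 2.07% were at least 2-fold higher and 4.78% at least 2-fold lower. These shares depend on abundance: they were 7.66% and 15.2% among genes with 20 to 99 counts, where *C1qa* lies, and 0.842% and 3.26% among genes with 100 to under 1000 counts, where the other 6 lie. The interval lay above 0 for 1 of the 7 markers and below 0 for 1, against 18.6% and 17.4% of all genes with at least 20 counts. With 7 genes, these counts show no more than the values of *Mpeg1* and *Mrc1* themselves. The median log2 fold change of the 7 was -0.23, beside -0.01 over all genes with at least 20 counts. With all 10 markers counted it turned to 0.17, since the 3 with the fewest counts had fitted values above 0.

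**Figure D4:**
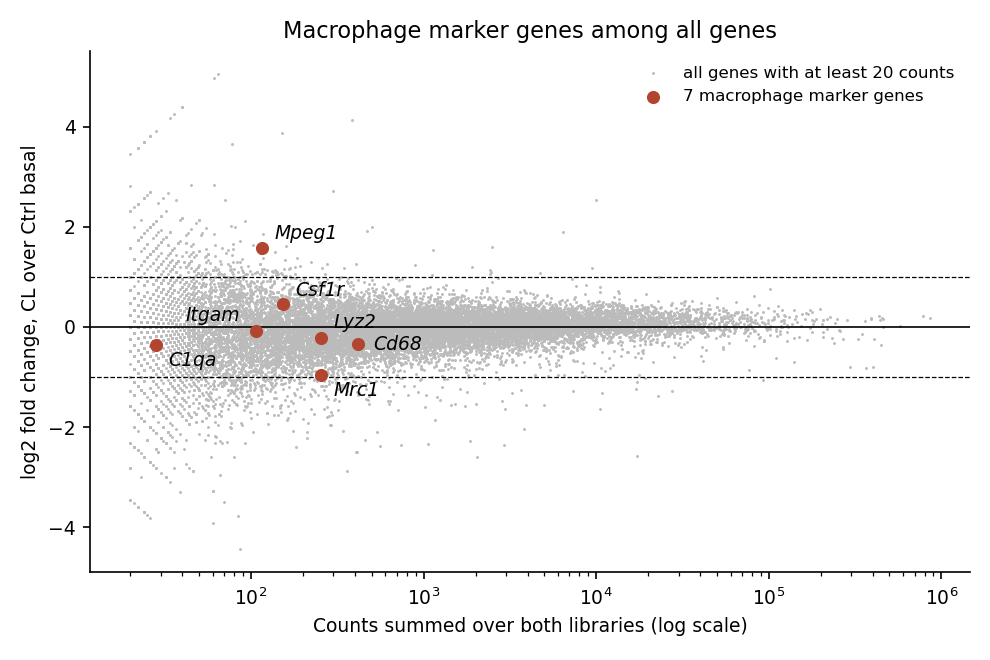
Log2 fold change of CL basal over Ctrl basal against the counts summed over both libraries (logarithmic axis) for all genes with at least 20 counts (grey) and for the 7 macrophage marker genes among them (red), with dashed lines at 2-fold. *Mpeg1* lies above the bulk of genes of its abundance, *Mrc1* at the lower edge of 2-fold, and the other 5 within the cloud.

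The markers did not keep one proportion to each other. A ratio of 2 genes within a library does not depend on scaling. Counts of *Mpeg1* were 0.167 times those of *Mrc1* in Ctrl basal and 1.02 times in CL basal, a change of 6.14-fold (95% exact interval of the odds ratio from halved counts, 2.89 to 13.4). For *Mpeg1* against *Cd68* the change was 3.96-fold (1.98 to 8.29), and against *Lyz2* 3.68-fold (1.76 to 7.96). Of 21 pairs of the 7 markers, 7 had an interval apart from 1, without adjustment for their number. These were all 6 pairs with *Mpeg1* and the pair of *Csf1r* and *Mrc1* (2.72-fold, 1.44 to 5.03). For the 10 pairs with neither *Mpeg1* nor *Mrc1*, a change of ratio was not detectable at this depth. *Mpeg1* and *Mrc1* stood out by these same counts, so the ratios describe them and are not further support.

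Other genes that macrophages use were counted in the same way. Of 40 further macrophage genes, 27 had at least 20 counts. Of the 27, 1 was at least 2-fold higher (*Lyz1*) and 1 at least 2-fold lower (*C1qc*), both with intervals across 0. Among all genes with at least 20 counts the shares were 2.07% and 4.78%. Among those with 20 to 99 counts, where both genes lie, they were 7.66% and 15.2%. The median log2 fold change of the 27 was 0.03, with 12 below 0 and 15 above 0. All 40 together held 13996 counts in Ctrl basal and 16131 in CL basal, a log2 ratio of 0.20 (95% exact interval 0.16 to 0.25), and 9295 and 11240 without *Lyve1*. The most abundant of them, *Lyve1* (4701 counts in Ctrl basal and 4891 in CL basal) and *Maf* (2590 and 3549), are known in lymphatic endothelium and in other cells as well. Some of the 40 genes are given as examples. Fewer reads in CL basal were counted for the adaptor genes *Tyrobp* (6 and 2 counts) and *Fcer1g* (6 and 0) and for *Spi1* (22 and 12), which encodes the myeloid transcription factor PU.1. More reads in CL basal were counted for *Clec4n* (0 and 14), *Siglec1* (0 and 8) and *Cd84* (6 and 14). The intervals of these 6 genes spanned 0, other than that of *Clec4n*, and *Trem2* and *Vsig4* had no count in either library. *Lilrb4a*, an inhibitory receptor gene, had 47 and 88 counts (log2 fold change 0.87, interval 0.15 to 1.69). *Msr1*, a scavenger receptor gene, had 284 and 291 counts (0.03, -0.31 to 0.38). *Fcgr2b* had 61 and 65 counts, *Aif1* 24 and 22, *Fcgr3* 10 and 10 and *Clec10a* 4 and 4. These genes, *Marco* and *Cd14* were picked after their values were seen. *Marco*, a scavenger receptor, was higher in CL basal at 907 and 1784 counts (log2 fold change 0.97, interval 0.81 to 1.14), just short of 2-fold, and *Cd14* was lower at 748 and 468 counts (-0.68, -0.92 to -0.44).

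The markers were also read beside the leukocyte genes that the CD45 gate should remove. *Ptprc*, which encodes CD45, had 537 counts in Ctrl basal and 521 in CL basal (log2 fold change -0.05, interval -0.30 to 0.20). Per length it was at 0.76 and 0.74 RPKM, close to *Mrc1* in Ctrl basal (0.69), above *Mpeg1* in CL basal (0.53) and below *Cd68* and *Lyz2*. This order rests on the deposited exonic lengths, 18313 bases for *Ptprc* against 1257 for *Cd68*, which had fewer counts (233 and 185). All 8 leukocyte genes together held 1171 and 1019 counts, a log2 ratio of -0.20 (-0.38 to -0.03), of which *Lcp1* (395 and 268) gave most of the difference. *Cd68* was also set beside 15 lysosome genes that all cells use. They held 73826 counts in Ctrl basal and 73852 in CL basal, with a median log2 fold change of -0.01. Of the 15, 0 were past 2-fold, beside 2.07% higher and 4.78% lower among all genes with at least 20 counts. The most counted were the cathepsin genes *Ctsl* (-0.01) and *Ctsb* (0.08). *Lamp1*, which encodes an abundant lysosomal membrane protein, was at -0.14, beside -0.33 for *Cd68*.

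MHC class II genes, which macrophages share with dendritic and B cells, were read beside *Mpeg1*: 5 of 7 were at least 2-fold higher in CL basal and 0 at least 2-fold lower, beside 2.07% and 4.78% of all genes with at least 20 counts. *H2-Ab1* had 1465 counts in Ctrl basal and 8525 in CL basal, and *Cd74* had 1360 and 5079. The 7 dendritic cell genes with at least 20 counts had a median log2 fold change of -0.06, with 4 below 0 and 3 above 0, from *Itgax*, which encodes CD11c (42 and 18 counts, -1.14, interval -2.54 to -0.04), to *Xcr1*, a chemokine receptor gene (14 and 26 counts, 0.80, -0.54 to 2.46). Of the 7, 1 (*Itgax*) was at least 2-fold lower and 0 at least 2-fold higher. *Ciita*, the class II transactivator gene, was at 25 and 27 counts (0.10, -1.11 to 1.34), and *H2-DMb1* was under 2-fold (0.89). Which cells gave the class II reads was not tested, nor was the part of any of these cells in the value of *Mpeg1*.

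The ligands of the *Csf1r* receptor were themselves read in the basal libraries. *Csf1* had 15915 counts in Ctrl basal and 17459 in CL basal, at 78.6 and 86.0 RPKM with the log2 fold change at 0.13 (95% interval 0.09 to 0.17). By RPKM its level was 230 times that of *Csf1r* in Ctrl basal and 181 times in CL basal. *Il34*, the other ligand, had 32 and 86 counts, at least 2-fold higher in CL basal with the log2 fold change at 1.37 (0.57 to 2.35). *Csf2*, the growth factor GM-CSF, had 102 and 48 counts and was at least 2-fold lower (-1.06, -1.86 to -0.36). The other 5 of these 8 ligand and attractant genes, among them the chemokine genes *Cx3cl1* (0.16), *Ccl2* (-0.13) and *Ccl7* (-0.11), stayed under 2-fold. Among all genes with at least 20 counts, 2.07% were at least 2-fold higher and 4.78% at least 2-fold lower.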

How the data were processed

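RNA-seq was measured in the basal fraction of mammary glands, with 1 CL and 1 Ctrl library. The authors deposited raw read counts per gene in the column layout of featureCounts, with GRCm38 (mm10) coordinates per the labels. Aligner, counter version, strand setting and handling of duplicate reads are not given in the sources used here. The labels name a SMARTER mRNA-seq kit. The deposited gene lengths were used for RPKM.

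Counts were scaled by TMM over the whole table (edgeR 4.0.16, R 4.3.3; factors 0.987 for CL and 1.01 for Ctrl), and log2 fold changes (CL basal relative to Ctrl basal) took a prior count of 2. With 1 library per group no test was possible, and a gene was called at 2-fold or more with at least 20 counts over both libraries. Intervals are exact at 95% (Clopper-Pearson for fold changes, Poisson for counts; scipy 1.17.1), from halved counts. They cover counting error only, and the method was tested on simulated data. Pair ratios carry an exact interval of the odds ratio. Dates stood in place of 26 gene names in the deposited counts, none of them a gene named here.

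Members and gene lists were chosen with earlier results of these data known. The text names all 10 markers, *C1qb*, *C1qc*, *Lyz1*, other macrophage genes past 2-fold, *Ptprc*, *Csf1*, *Il34* and the 2 most counted genes of each other list. Other genes named, and the class of 100 to under 200 counts, were picked after their values were seen. Alternatives were other scalings, prior counts, count filters, a lower fold threshold, halved counts and sums without single markers.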

Additional observations from a re-analysis of the deposited data

How the results depend on the processing

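No paired analysis was possible because neither CL basal nor Ctrl basal had more than 1 library. Under other scalings (total counts, DESeq2 1.42.0 size factors, upper quartile), prior counts of 0.5 and 5 and halved counts, all 60 recomputed log2 fold changes of the 10 markers stayed inside their counting intervals. This could hardly fail, since the intervals were 0.82 (*Cd68*) to 4.94 (*Cd163*) log2 units wide and that of *Fcgr1* had no upper bound. *Mrc1* ranged from -0.99 to -0.92 and *Mpeg1* from 1.49 to 1.63. With a 1.5-fold threshold, 1 marker (*Mrc1*) was lower in place of 0, with no share of all genes at that threshold to set beside it. With no filter on low counts, 2 markers were higher in place of 1, since *Fcgr1* joined *Mpeg1*. The fitted value of *Fcgr1*, from 4 counts against 0, depends on the prior count (0.85 to 3.17). The median log2 fold change of the markers was -0.26 with scaling by total counts, -0.15 with halved counts or with at least 100 counts (6 markers each) and 0.17 with no filter (10 markers), where its sign turned. With intervals from the counts as deposited, which treat mates as separate fragments, *Cd68* also lay below 0 (-0.62 to -0.05), while *Csf1r* still spanned 0 (-0.01 to 0.96). The summed counts without *Mrc1* or without *Mpeg1* were alternatives chosen after seeing the data. Without *Csf1r* and *Itgam*, which share exonic bases with other genes, the log2 ratio of the sums was -0.22 (-0.46 to 0.03). Depth limits *Adgre1*, *Cd163*, *Fcgr1* and *C1qa*, each with at most 16 counts in a library.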

Other observations

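Lists of other blood cell genes held from 24 to 2242 counts a library. Neutrophil genes held 24 counts in Ctrl basal and 92 in CL basal, mostly *S100a9*, which encodes a calcium-binding protein of granulocytes (15 and 66 counts, log2 fold change 2.0, 95% exact interval 0.96 to 3.50), with *S100a8* at 5 and 10 counts, while *Ly6g* and *Elane* had no count. Monocyte genes held 1504 and 2242 counts, nearly all of them *Vcan* (1466 and 2200), a proteoglycan gene that stromal cells also use, and 38 and 42 without it: *Plac8* had 28 and 16, *Ccr2* 10 and 20 and *Ly6c2* 0 and 6. Mast cell genes held 337 and 219 counts, mostly *Kit* (319 and 205), and 18 and 14 without it. Their other genes had few counts in either direction: *Cpa3* (0 and 10), *Mcpt4* (8 and 2), *Tpsb2* (6 and 0) and *Cma1* (4 and 2). B and plasma cell genes held 563 and 743 counts, among them *Ighm* (296 and 428) and *Igkc* (116 and 171). T and NK cell genes held 110 and 127 counts, led by *Cd4* (43 and 42) and *Cd3d* (21 and 30). Langerhans cell genes held 133 and 148, led by *Cd1d1* (87 and 90) and *Il1r2* (26 and 28), with *Cd207*, their defining marker, at 0 and 2.

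Among stromal genes, the endothelial list held 15182 counts in Ctrl basal and 12436 in CL basal, a log2 ratio of -0.29 (-0.34 to -0.24), and the fibroblast list 9542 and 7840 (-0.29, -0.35 to -0.23). Of 6 endothelial genes 4 were below 0 and 2 above 0, *Emcn* (154 and 215 counts, 0.47, 0.04 to 0.92) and *Vwf* (1227 and 1260). Of 6 fibroblast genes 5 had a log2 fold change below 0, among them *Col1a2* (2366 and 2027 counts) and *Dcn* (2356 and 1462), and *Col3a1* (2330 and 2508) was above 0. *Lum*, a collagen-binding proteoglycan gene of fibroblasts, had 128 and 34 counts and was at least 2-fold lower. The luminal list held 154497 and 89049 counts. Of its 7 genes, 2 (*Krt19* and *Cldn4*) were at least 2-fold lower, beside 4.78% of all genes with at least 20 counts.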
